A study of Homo sapiens with 20 samples.

Results

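CTCF sites bound in IMR90 only are 3501 genomic positions at which both CTCF ChIP-seq libraries of control IMR90 cells had a peak and neither CTCF library of control LNCaP cells had one. They were taken from 29519 IMR90 control sites on chromosomes 1 to 22, which are merged peaks present in both standard control libraries, and made up 11.9% of them. The members were selected on the presence of peaks in the 4 standard control libraries, so their strength in control IMR90 cells and their lack of LNCaP control peaks are given as a description, with no test. Another 23470 IMR90 control sites overlapped a peak in both LNCaP control libraries and are called shared, and 2548 overlapped a peak in 1 of the 2 and are called partly shared.

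IMR90 is a normal human lung fibroblast line and LNCaP is a human prostate cancer line. Both were transfected with 20 nM of a pool of CTCF siRNAs or of non-targeting control siRNAs, and chromatin was collected at 144 h, with 2 libraries in each of 10 groups. CTCF was measured in control and CTCF siRNA cells of both lines with a standard protocol and in IMR90 also with a low-cell ChIP-seq kit, and H3K4me3 and H3K27ac were measured in control and CTCF siRNA LNCaP cells. IMR90 was represented by CTCF peaks alone, so its identity could not be checked against active genes, and each tissue was represented by 1 cell line. In LNCaP, all 18 prostate luminal genes listed as such had an H3K4me3 region in both control libraries over a transcript start, against 9 of 24 fibroblast matrix and mesenchymal genes and 14 of 24 transcription factors of mesenchyme and lung mesoderm.

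CTCF is a zinc finger protein that binds a long, GC-rich motif and, with cohesin, anchors chromatin loops and insulates neighbouring domains. Most CTCF sites are bound in many cell types, and those that vary between cell types tend to be weaker and can depend on methylation of CpGs in the motif or on other factors bound to the same enhancer. The fold enrichment of a peak, used below as its strength, is the ratio of reads at the summit to the local background in that library, and it is not scaled between libraries.

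The sequences of the strongest IMR90-only sites and of those that kept a peak most widely after CTCF depletion are given with their closest CTCF motif matches. Each run is hg19 reference sequence, 5′ to 3′ on the strand of the match, and the capitals mark the closest match to the CTCF consensus motif within 100 bp of the summit. Of the 5 strongest sites, 4 are shown, and their closest matches had 4 mismatches of 14 bases at WDR25 and MYO9B and 3 at C1S and CCDC12. The fifth, near FGF20, had 2 mismatches and is the only one of the 5 with the CTCF motif as defined below.
WDR25 intron, chr14:100883944-100883973, plus strand: tacctctgCTTGCGGATGGGGGtgctagag
C1S UTR, chr12:7167908-7167937, plus strand: ttgtttcaAAAGCAGAGGGAGCtccaagat
MYO9B intron, chr19:17190980-17191009, plus strand: tctgccctGCTGCACAGGGCTGtatgtgca
CCDC12 intron, chr3:46977201-46977230, minus strand: cattcctaCCCCTAGATGGGCCctacttct

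No IMR90-only site had a peak in both standard and both low-cell CTCF siRNA libraries. The 5 sites with a peak in both standard libraries and in 1 low-cell library after CTCF siRNA, chosen after their values were seen, included 3 with 0 or 1 mismatch (MAD2L1 with 0, FRG2B and EHD2 with 1), while EDEM3 had 3 and PITRM1 had 4.
EDEM3, noncoding exon 26082 bp away, chr1:184633269-184633298, minus strand: tcctgcggACGGCTGGGGGCGCtgcgcttc
MAD2L1, noncoding intron 89436 bp away, chr4:121077457-121077486, plus strand: atctgtgtCCAGCAGATGGCACtagtgcct
FRG2B, intergenic 20431 bp away, chr10:135460772-135460801, plus strand: tacaatagCCACTAGGTGGCGAtcgagtat
EHD2, noncoding intron 166 bp away, chr19:48216561-48216590, plus strand: cccactccCCACAAGGGGGCGCcagaggcc
PITRM1, noncoding intron 264391 bp away, chr10:3479462-3479491, minus strand: gctctgcaCTAATAGAGGAGAGagagagag

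IMR90-only sites were weak members of the IMR90 CTCF repertoire. Their median fold enrichment was 7.37 in control replicate 1 and 7.38 in control replicate 2, and the 2 libraries were within 2-fold of each other at 96.4% of them. Their mean of the 2 libraries had a median of 7.40, with quartiles of 6.17 and 9.37, against 8.12 at partly shared and 15.5 at shared sites. A mean under 10 was seen at 2772 IMR90-only sites (79.2%) and at 23.6% of shared sites, and a mean over 20 at 46 IMR90-only sites (1.31%) and at 31.5% of shared sites. The merged control peaks had a median width of 328 bp at IMR90-only and 418 bp at shared sites.

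**Figure D1:**
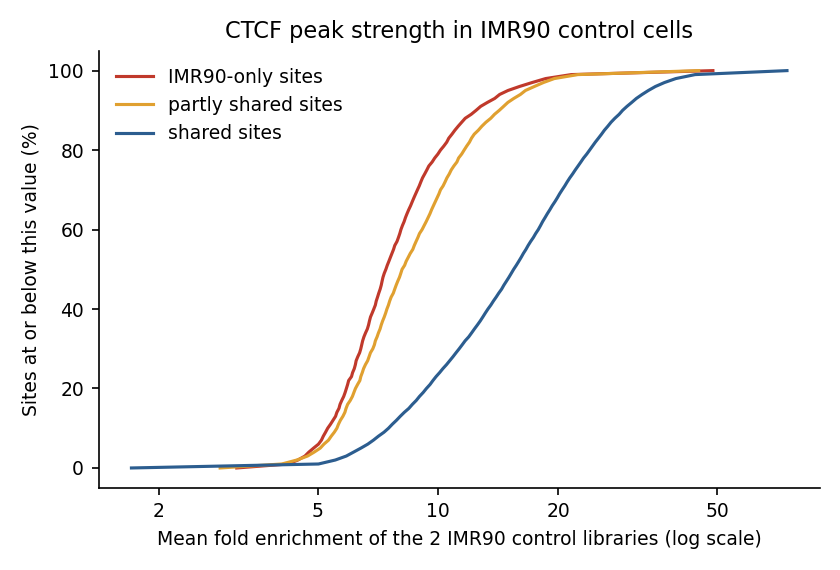
Cumulative share of sites (y axis, %) at or below a given mean fold enrichment of the 2 IMR90 control libraries (x axis, log scale) for IMR90-only, partly shared and shared sites. The curve of IMR90-only sites lies furthest left, with a median of 7.40 against 15.5 at shared sites.

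The strongest site lay in an intron of WDR25, a WD repeat gene (chr14:100883707-100884170, hg19), with a fold enrichment of 46.9 and 50.6 in the 2 control libraries. The next lay in a UTR of C1S, which encodes a serine protease of the classical complement pathway (chr12:7167694-7168338), with 46.8 and 47.1. An intergenic site 10724 bp from FGF20, a fibroblast growth factor gene (chr8:16870334-16870800), had 42.1 and 41.0. Introns of MYO9B, an unconventional myosin (chr19:17190652-17191334), and of CCDC12 (chr3:46977006-46977447) held the others, with 37.6 and 29.4 at MYO9B and 35.0 and 28.6 at CCDC12. All 5 kept a peak in both standard CTCF siRNA libraries, whereas in the low-cell control libraries 2 had a peak in both, C1S had one in replicate 1 and the sites at FGF20 and MYO9B had none.

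The rule turns on 1 bp of overlap, so some sites lie close to its edge. The IMR90-only sites nearest to an LNCaP control peak were 19, 25 and 32 bp from it, at ROBO2 (fold enrichment 15.3 and 13.3), EEIG1 (7.11 and 5.77) and ENSG00000286098 (8.78 and 10.1). Just outside the rule, sites at KCTD14 (4.89 and 5.58), C17orf50 (4.53 and 4.04) and ENSG00000267618 (5.27 and 9.53) overlapped an LNCaP control peak by at most 3, 13 and 32 bp. Gaps that short were rare, with 10 IMR90-only sites under 100 bp and 207 (5.91%) under 1 kb from an LNCaP control peak. The median gap was 14560 bp.

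Few IMR90-only sites kept a peak when CTCF was depleted. In the standard CTCF siRNA libraries, 515 of 3501 sites had a peak in replicate 1 (14.7%, 95% Wilson interval 13.6 to 15.9) and 420 in replicate 2 (12%, 11 to 13.1). Both libraries had a peak at 255 sites (7.28%, 6.47 to 8.19), against 51.6% of all IMR90 control sites. Shared sites had a peak in replicate 1 at 71.0%, in replicate 2 at 68.5% and in both at 62.4% (61.8 to 63.0). Partly shared sites had 23.3%, 20.3% and 13.3%. The shares of IMR90-only sites lay far below those of shared sites in both libraries. Sites of 1 library are not replicates, so classes of sites were compared in each library by their shares, without a p-value, and all intervals cover counting error only. The lists hold no read counts, so a lost peak is one under the authors' threshold at a depth they do not show. The study's list of libraries gives more reads for each standard CTCF siRNA library than for either control library, and the CTCF siRNA lists held 18597 and 17947 peaks against 34548 and 35661 in control cells.

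Control strength and persistence went together within the IMR90-only sites. Of those with a mean control fold enrichment of 5 to 7.5, 38 of 1603 were kept in both libraries (2.37%), and of those from 10 to 15, 67 of 554 were (12.1%). The share was 53.5% from 15 to 20 (69 of 129) and 87.0% at 20 or more (40 of 46, 74.3 to 93.9). In the same ranges shared sites were kept at 11.2%, 48.2%, 78.8% and 96.0%, and partly shared sites at 4.97%, 18.2%, 49.0% and 81.8%. From a fold enrichment of 15 on, partly shared sites were thus not above IMR90-only sites. With shared sites weighted to the control strength of the IMR90-only sites, 23.5% of them were kept, so that IMR90-only sites were 16.2 percentage points lower (a difference of -16.2). In replicate 1 alone this difference was -19.7 points and in replicate 2 it was -19.0.

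**Figure D2:**
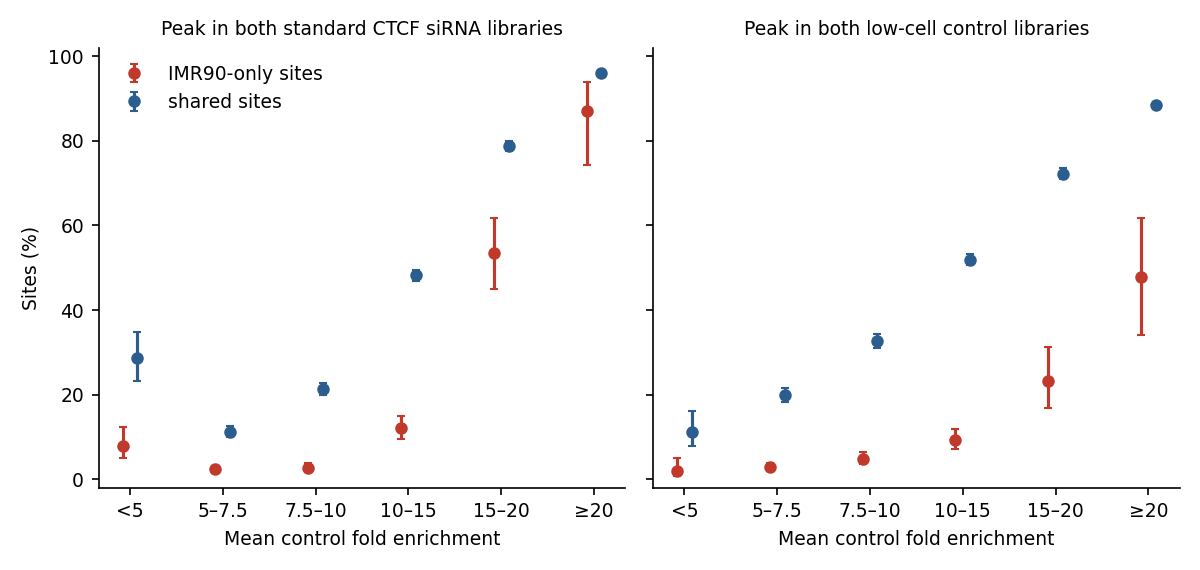
Share of IMR90-only and shared sites (y axis, %, with 95% Wilson intervals) with a peak in both standard CTCF siRNA libraries (left) or both low-cell control libraries (right) in 6 ranges of mean control fold enrichment (x axis). IMR90-only sites lie below shared sites in every range of both panels, and at 20 or more 87.0% of them were kept after CTCF siRNA against 47.8% found in both low-cell controls.

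The weakest range did not follow this order in any class. Under 5, partly shared sites were kept at 20.0% (23 of 115) and shared sites at 28.7% (66 of 230), against 4.97% and 11.2% from 5 to 7.5. Among the 202 IMR90-only sites with a mean control fold enrichment under 5, 16 were kept in both libraries (7.92%, 4.93 to 12.5). At 14 of these 16 the mean fold enrichment was higher after CTCF siRNA than in control cells, and their medians were 5.72 and 4.42. None of the 16 had a CTCF motif by the definition used below, and none had a peak in either low-cell control library. At the 239 kept sites with a control strength of 5 or more, the median was 14.3 under control siRNA and 7.52 under CTCF siRNA. Of these 239, 25 had a higher value after CTCF siRNA. Both sets were chosen by their control value and by being called again after depletion, and fold enrichment is not scaled between libraries. The rise at the 16 and the drop at the 239 can follow from that choice alone. A change in binding was not tested.

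IMR90-only sites were also seldom found in IMR90 control cells by the low-cell protocol. Low-cell control replicate 1 had a peak at 345 of them (9.85%, 8.91 to 10.9) and replicate 2 at 337 (9.63%, 8.69 to 10.6), and both had one at 201 (5.74%, 5.02 to 6.56), against 51% of all IMR90 control sites. For shared sites the corresponding shares were 69.7%, 67.2% and 61.7%, and for partly shared sites 23.7%, 19.4% and 14.5%. Sites found in both low-cell controls had a median standard control fold enrichment of 10.2, and sites found in neither 7.23. At 20 or more, 22 of 46 IMR90-only sites were found in both (47.8%, 34.1 to 61.9). Partly shared sites in this range had 43.2% and shared sites 88.5%. From 10 to 15 the shares were 9.21% of IMR90-only, 22.2% of partly shared and 51.9% of shared sites. With shared sites weighted to the same strength, 30.0% were found in both low-cell controls, a difference of -24.2 percentage points. The low-cell lists held 19576 and 18545 peaks, of which 1.77% and 1.82% lay on IMR90-only sites and 83.5% and 84.9% on shared sites.

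After CTCF siRNA the low-cell protocol retained almost none of them. Low-cell CTCF siRNA replicate 1 had a peak at 14 IMR90-only sites (0.400%) and replicate 2 at 1 (0.0286%), so 14 sites had a peak in either library, against 14.9% of all IMR90 control sites. The mean share was 9.74% ± 0.162 (SD, n = 2) in low-cell control libraries and 0.214% ± 0.263 (SD, n = 2) after CTCF siRNA, a difference of 9.53 percentage points, and the values of the groups did not overlap. The two-sided exact permutation test over the 4 libraries gave p = 0.33, which is the smallest p that 2 libraries against 2 allow. For shared sites the mean share was 68.4% ± 1.77 in control and 12.7% ± 7.86 after CTCF siRNA. The CTCF siRNA lists were short, with 4978 and 1921 peaks.

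The site in the last of these libraries was also the only one with a peak in both. It lay in an intron of a noncoding transcript 256654 bp from JADE1 (chr4:129474051-129474368), with a fold enrichment of 15.0 and 5.48 in the low-cell CTCF siRNA libraries. In the low-cell controls it had 2.94 in replicate 1 and no peak in replicate 2, and in the standard controls it had 6.81 and 6.90. Its closest match to the CTCF consensus had 4 mismatches.

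**Figure D3:**
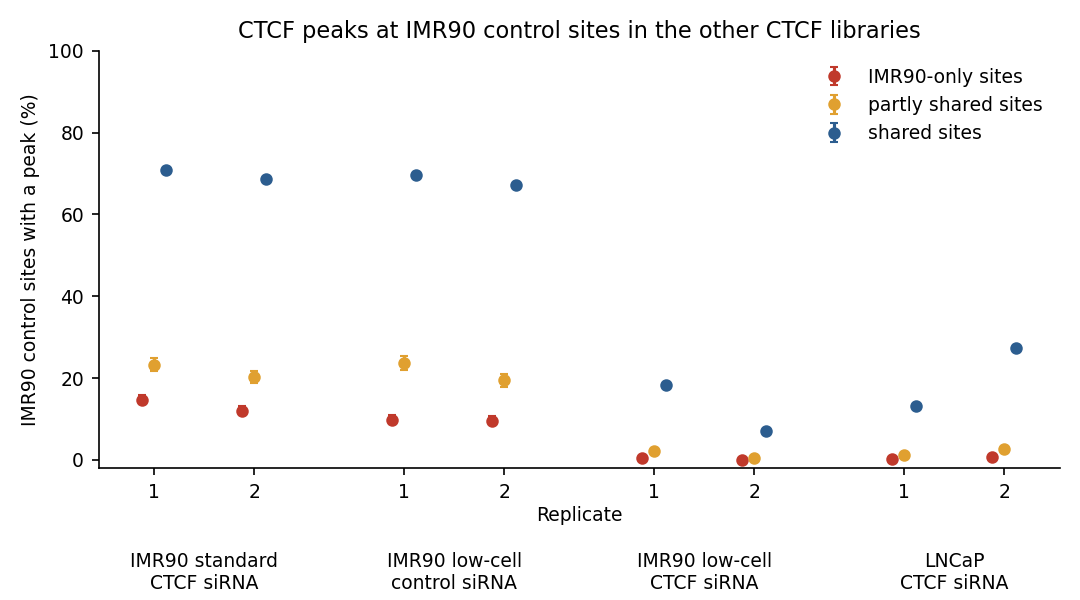
Share of IMR90-only, partly shared and shared IMR90 control sites (y axis, %, with 95% Wilson intervals) with a peak in each of 8 CTCF libraries that did not choose the sites (x axis, by group and replicate). IMR90-only sites lie lowest in every library, from 14.7% in standard CTCF siRNA replicate 1 to 0.0286% in low-cell CTCF siRNA replicate 2.

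The 5 sites whose sequences are shown above for their persistence differed in strength. The site nearest EDEM3, which encodes an enzyme of glycoprotein quality control in the endoplasmic reticulum (chr1:184633097-184633508), had 18.3 and 17.3 in the standard controls, and the CTCF siRNA libraries gave 25.8 and 22.3. In the low-cell protocol it had 11.4 and 13.6 in the control libraries and 13.3 in CTCF siRNA replicate 1. The site next to EHD2, an ATPase of caveolae (chr19:48216409-48216617), had 15.2 and 14.8 in the low-cell controls, 6.14 and 7.12 in the standard controls and 9.56 and 10.6 in the standard CTCF siRNA libraries, with no scaling between protocols. The sites nearest MAD2L1, a spindle checkpoint gene (chr4:121077216-121077788), and FRG2B (chr10:135460666-135460890) had 12.6 and 12.5, and 7.90 and 11.3, in the standard controls. The site nearest PITRM1, a mitochondrial protease gene (chr10:3479256-3479597), had 5.59 and 6.35 in the standard controls and no peak in either low-cell control.

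CTCF motifs were less frequent at IMR90-only sites than at shared sites. The CTCF consensus motif of 14 bases was searched on both strands within 100 bp of each summit, and a match with up to 2 mismatches was counted. Such a match was present at 1222 IMR90-only sites (34.9%, 33.3 to 36.5), against 71.5% of all IMR90 control sites, 53.1% of partly shared and 79% of shared sites. In windows of the same length 1000 bp away, matches were found at 4.51% for IMR90-only and 5.31% for shared sites. No mismatch was seen at 37 IMR90-only sites (1.06%) and at 14.2% of shared sites, and 1 mismatch at 10.1% and 35.1%. With shared sites weighted to equal control strength, 67.9% of them had the motif, 33.0 points more than IMR90-only sites (a difference of -33.0).

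**Figure D4:**
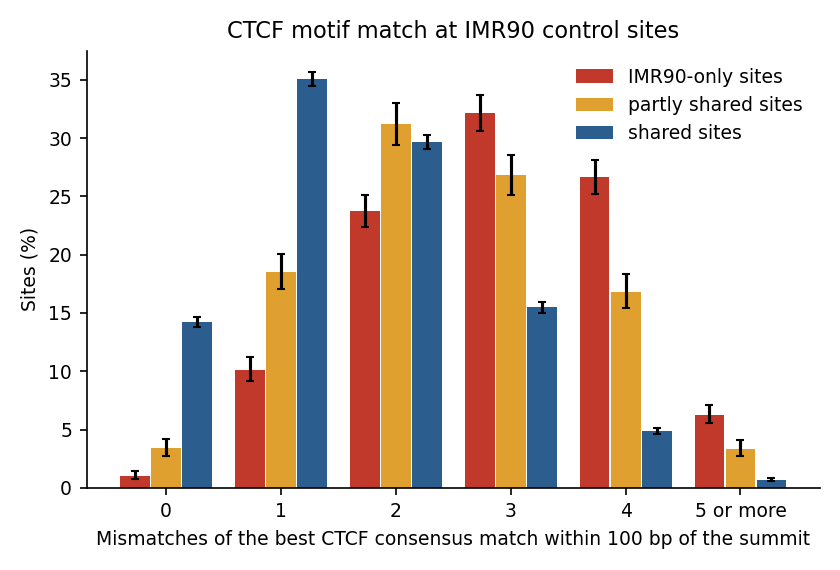
Share of IMR90-only, partly shared and shared sites (bars, y axis in %, with 95% Wilson intervals) by the number of mismatches of their closest CTCF consensus match within 100 bp of the summit (x axis). IMR90-only sites peak at 3 mismatches (32.2%) and shared sites at 1 mismatch (35.1%).

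The share of IMR90-only sites with the motif lay between 23.8% and 40.6% in all 6 ranges of strength. The motif was present at 33.4% of those with a control fold enrichment of 5 to 7.5, at 40.6% from 10 to 15, at 32.6% from 15 to 20 and at 32.6% at 20 or more (15 of 46, 20.9 to 47.0). At shared sites it was present at 63.6%, 78.5%, 83.1% and 84.9% in the same ranges. Of the 201 IMR90-only sites found in both low-cell controls, 106 had the motif (52.7%, 45.8 to 59.5), against 33.8% of the other 3300. Shared sites had the same order, with 87.4% and 65.4%. The share of IMR90-only sites kept in both standard CTCF siRNA libraries was 6.55% (5.29 to 8.07) with the motif and 7.68% (6.66 to 8.84) without it, with overlapping intervals. Shared sites were kept at 67.0% with the motif and at 45.3% without it.

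Letters of another factor stood out at IMR90-only sites. After the values above had been seen, 8 short motifs of other factors were searched in the same windows on both strands. AP-1, the FOS and JUN family of factors active at many enhancers, binds TGANTCA, and these letters were present at 462 IMR90-only sites (13.2%, 12.1 to 14.4), against 5.93% of partly shared, 5.21% of shared and 6.22% of all IMR90 control sites. In the windows 1000 bp away the letters were found at 5.97% for IMR90-only and 6.13% for shared sites. GGAATG, the letters bound by TEAD factors of the Hippo pathway, was present at 16.5% of IMR90-only sites (15.3 to 17.8), 11.6% of shared sites and 10.9% of the windows 1000 bp from IMR90-only sites. For the other 6 (E-box, GATA, RUNX, C/EBP, forkhead and ETS) the share at IMR90-only sites differed from that in the windows 1000 bp away by -3.51 to 1.49 percentage points.

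AP-1 letters were more frequent where the CTCF motif was lacking. They were present at 15.0% of IMR90-only sites without the CTCF motif (341 of 2279, 13.6 to 16.5) and at 9.90% of those with it (8.35 to 11.7), whereas shared sites had 5.29% and 5.19%. At a control fold enrichment of 15 or more, 36 of 175 IMR90-only sites held them (20.6%, 15.2 to 27.2), against 5.10% of shared sites. Within 1 kb of a gene start they were found at 13 of 228 (5.70%, 3.36 to 9.51). Sites with AP-1 letters kept a peak in both standard CTCF siRNA libraries at 9.96% (7.55 to 13) and sites without them at 6.88% (6.03 to 7.83). In both low-cell controls the order was the other, with 3.46% (2.14 to 5.55) and 6.09% (5.29 to 6.99). The intervals overlapped in both of these comparisons.

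Of the strong IMR90-only sites with AP-1 letters, 3 are shown on the plus strand of hg19 with these letters in capitals, because 2 of them are among the 5 strongest sites in all.
WDR25 intron, chr14:100884008-100884036, plus strand: gctctggagagTGAGTCAggaatacagct
MYO9B intron, chr19:17190945-17190973, plus strand: atatccttgtcTGACTCActtgtttaaaa
MOV10L1 intron, chr22:50585460-50585488, plus strand: atgtgtgttgaTGAGTCAaaggtcaagag

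At MOV10L1, a germline RNA helicase gene, the site had a fold enrichment of 24.9 and 30.2 in the standard controls, and the CTCF siRNA libraries gave 15.1 and 19.4. All 3 sites had 4 mismatches to the CTCF consensus. The AP-1 letters shown lay 51 bp from the summit at WDR25 and 83 bp from it at MYO9B and MOV10L1.

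Among sites with the CTCF motif, a CpG inside the match was less frequent at IMR90-only than at shared sites. It was present at 237 of 1222 (19.4%, 17.3 to 21.7), at 20.3% of partly shared (18.3 to 22.6) and 30.3% of shared sites. IMR90-only and partly shared sites thus had overlapping intervals. The difference from shared sites lay mainly at positions 12 and 13 of the match, counted from its 5′ end. A CpG was present there at 14.9% of IMR90-only (13 to 17), 16.3% of partly shared and 24.9% of shared sites. The windows around the summit of IMR90-only and shared sites had a median GC content of 46.8% and 47.8%. Their median ratio of observed to expected CpGs was 0.196 and 0.253. At partly shared sites these medians were 45.8% and 0.193. The summits lay in introns at 60.8% of IMR90-only sites (59.2 to 62.4) and 54.1% of shared sites, and between genes at 27.5% (26.1 to 29.0) and 35.4%. Partly shared sites had 57.9% in introns and 29.6% between genes. A protein-coding gene started within 1 kb of 228 IMR90-only sites (6.51%, 5.74 to 7.38), 6.51% of partly shared and 5.13% of shared sites.

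IMR90-only sites lay near one another more often than shared sites lay near them. The nearest IMR90 control site was itself IMR90-only for 621 of them (17.7%, 16.5 to 19.0), for 14.4% of partly shared and for 10.4% of shared sites, although they made up 11.9% of all sites. Neighbours are not independent, since 2 sites can be each other's nearest. In runs of consecutive IMR90 control sites with none of another class between them, 1060 IMR90-only sites formed 467 runs of at least 2, and the longest run held 6. With clusters defined as at least 4 IMR90-only sites separated by at most 50 kb, 8 clusters held 39 IMR90-only sites, which is 1.11% of them.

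The cluster with the most sites held 7 over 189 kb at BANP, which encodes a nuclear matrix-associated DNA-binding protein (chr16:87990379-88179393). Its control fold enrichments ranged from 6.37 to 16.9, and 2 shared sites lay inside the span. The strongest of the 7 (15.3 and 18.5) was the only one kept in both CTCF siRNA libraries and the only one found in both low-cell controls. None overlapped an H3K27ac or H3K4me3 region of both LNCaP control libraries.

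The second cluster held 6 sites over 71.4 kb between SELENOP, which encodes a selenium transport protein, and ANXA2R, an annexin A2 receptor gene (chr5:42949126-43020534). None of these was kept in both CTCF siRNA libraries, 1 had the CTCF motif, and 3 lay in an H3K4me3 region of both LNCaP control libraries. Of 2 clusters with 5 sites, that with the higher summed fold enrichment spanned 127 kb at WNT10B, DDN, PRKAG1, KMT2D and DHH (chr12:49359268-49486292), a stretch with WNT and hedgehog ligand genes that also held 6 shared sites. Its strongest site lay in a coding exon of DDN (22.7 and 27.4 with control siRNA, 16.7 and 8.5 with CTCF siRNA) and was the only one of the 5 kept in both CTCF siRNA libraries.

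The run with the most sites spanned 908 kb from PITRM1 past KLF6, a zinc finger transcription factor gene, towards AKR1E2 (chr10:3479256-4387211), with 6 IMR90-only sites and no other IMR90 control site. In this span the LNCaP control libraries had 3 and 4 peaks, none at the 6 sites. Both CTCF siRNA libraries kept 3 of the 6, and no low-cell control library had any of them. Of 6 runs with 5 sites, that with the highest summed fold enrichment spanned 430 kb between TCF4, a basic helix-loop-helix factor gene, and TXNL1 (chr18:53536121-53966510), where the LNCaP control libraries had 0 peaks and no CTCF siRNA library kept a site. The next by summed fold enrichment was formed by the last 5 sites of the BANP cluster.

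The share of IMR90-only sites differed between chromosomes. It was 20.3% on chromosome 13 (150 of 740, 17.5 to 23.3) and 18.4% on chromosome 18 (120 of 651, 15.6 to 21.6), and lay between 8.67% (chromosome 19) and 14.6% (chromosome 16) on the others. Chromosomes 13 and 18 also had the fewest LNCaP control peaks per IMR90 control site, with 0.911 and 1.19 in the 2 LNCaP libraries on chromosome 13 and 1.02 and 1.28 on chromosome 18, and the part of this in the result was not tested. Without these 2 chromosomes, chosen after seeing the data, the nearest site was IMR90-only for 16.8% of IMR90-only sites (15.5 to 18.1) and 10.1% of shared sites.

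**Figure D5:**
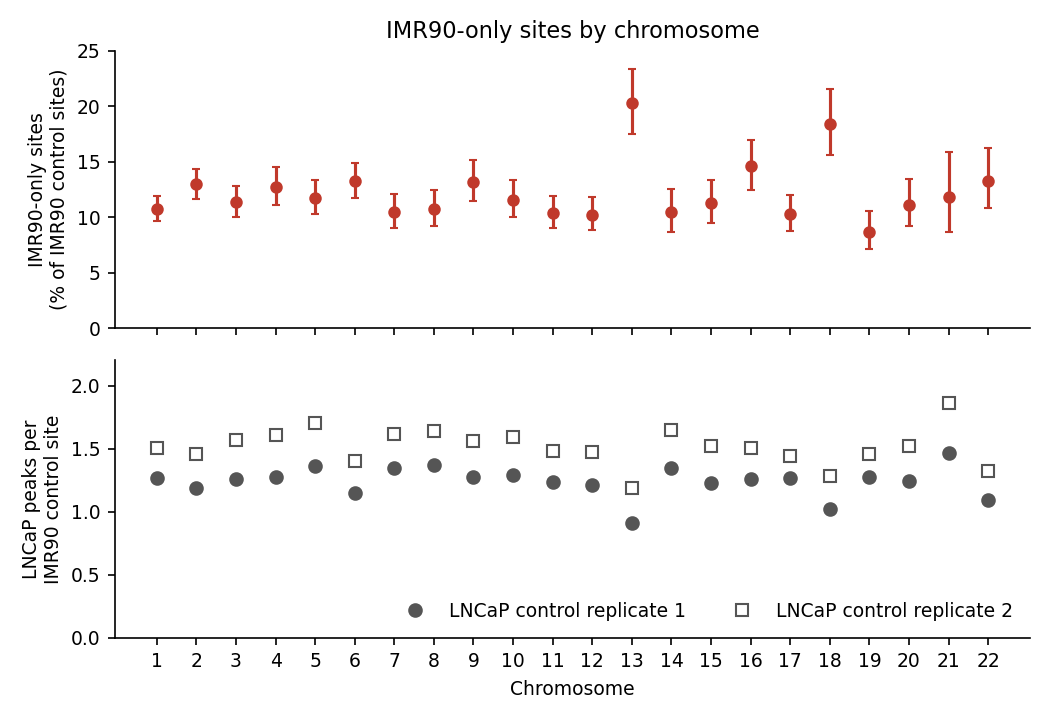
IMR90-only sites as a share of IMR90 control sites on each chromosome (upper panel, y axis in %, with 95% Wilson intervals) and LNCaP control CTCF peaks per IMR90 control site for the 2 LNCaP control libraries (lower panel). Chromosomes 13 and 18 have the highest shares, 20.3% and 18.4%, and the lowest LNCaP values in both libraries.

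Genes of the fibroblast lineage had IMR90-only sites at counts too small to set apart from the background of 11.9%. In or within 10 kb of the 24 fibroblast matrix and mesenchymal genes, 11 of 57 IMR90 control sites were IMR90-only (19.3%, 11.1 to 31.3), at COL1A1, COL3A1, COL5A1, COL5A2, COL6A3, FBN1, FN1, PDGFRB and VIM. The strongest was 2433 bp from FBN1, the gene of the microfibril protein fibrillin-1 (13.2 and 12.6 in control cells), and the next lay near COL6A3 (6.32 and 11.9), in PDGFRB, a receptor of mesenchymal cells (7.97 and 9.08), and in COL5A1 (6.09 and 8.34). The PDGFRB site had 5.70 in CTCF siRNA replicate 1, no peak in replicate 2 and 7.12 and 5.54 in the low-cell controls.

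Near 24 transcription factors of mesenchyme and lung mesoderm, 9 of 42 sites were IMR90-only (21.4%, 11.7 to 35.9). Their strongest lay within ZEB1 (12.7 and 12.1), RUNX1 (9.65 and 10.9), TWIST1 (9.48 and 10.1) and TWIST2 (8.95 and 9.53), of which ZEB1 and the TWIST genes promote the mesenchymal state. None of these 4 had a peak in a standard CTCF siRNA library. Near prostate luminal genes 1 of 21 sites was IMR90-only (4.76%, 0.846 to 22.7), in FKBP5, a glucocorticoid and androgen response gene (10.7 and 10.4). Near epithelial genes 4 of 22 were (18.2%, 7.31 to 38.5), led by 2 sites in SNX5 near OVOL2 (14.7 and 10.4, and 6.73 and 10.6).

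At HOX genes, 4 of 20 sites were IMR90-only (20.0%, 8.07 to 41.6), 3 of them at HOXB1 and HOXB3. The strongest lay in an intron of HOXB3 (14.2 and 13.3, with 5.52 in CTCF siRNA replicate 1), and the site 5361 bp from HOXB1 had 6.97 and 8.52 in the standard controls and 15.2 and 6.56 in the low-cell controls. The clustered protocadherins held 1 of 20 (5.00%, 0.888 to 23.6). None of the IMR90-only sites of any of the 6 lists was kept in both standard CTCF siRNA libraries. Among all IMR90-only sites 7.28% were, and the lists hold too few sites to set them apart from that share. The interval of each list for the share of IMR90-only sites holds the background of 11.9%.

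Few of these positions had a CTCF peak in LNCaP cells given CTCF siRNA, whose lists held 3652 and 7549 peaks. The study's list of libraries gives far fewer reads for the first of these than for the second or either LNCaP control library. What depth contributed was not tested. LNCaP CTCF siRNA replicate 1 had a peak at 4 IMR90-only sites (0.114%) and replicate 2 at 28 (0.800%), and 31 sites had one in either library, against 22.8% of all IMR90 control sites. Their median IMR90 control fold enrichment was 5.02, 1 of the 31 had the CTCF motif, 14 were kept in both IMR90 CTCF siRNA libraries and 1 had a peak in a low-cell control library. The strongest 3 in IMR90 lay 240589 bp from UBE2E2 (8.13 and 9.24), 231684 bp from CDH18 (7.90 and 8.93) and 336 bp from BRINP3 (7.62 and 8.66), each with a peak in LNCaP replicate 2 alone. The site with a peak in both LNCaP CTCF siRNA libraries lay in an intron of LAMA2, a laminin gene (7.77 and 9.96 there, 4.68 and 5.10 in IMR90 control cells).

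H3K27ac, a mark of active enhancers and promoters, covered some of these positions in LNCaP although CTCF was not called there. An H3K27ac region of both LNCaP control libraries overlapped 446 IMR90-only sites (12.7%, 11.7 to 13.9), against 14.5% of all IMR90 control sites and 14.6% of shared sites. An H3K4me3 region of both control libraries, the mark of active promoters, overlapped 332 (9.48%, 8.56 to 10.5), against 11.9% of all IMR90 control sites and 12.4% of shared sites. Both marks were present at 243 IMR90-only sites (6.94%), 8.56% of partly shared and 7.67% of shared sites. No library of either treatment had an H3K27ac region at 74.8% of IMR90-only sites or an H3K4me3 region at 85.7%. For all IMR90 control sites these shares were 72.0% and 79.7%.

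Overlap was more frequent at gene starts. Within 1 kb of a protein-coding gene start, 57.9% of the 228 IMR90-only sites lay in an H3K27ac region (51.4 to 64.1) and 62.7% in an H3K4me3 region (56.3 to 68.7), against 9.59% and 5.77% of the other 3273. Shared sites had the same order, with 63.2% and 78.1% within 1 kb of a gene start and 12% and 8.84% elsewhere. The CTCF motif was present at 27.8% of IMR90-only sites in an H3K27ac region (23.8 to 32.1) and at 35.9% of the others (34.3 to 37.7), and at 21.7% of those in an H3K4me3 region (17.6 to 26.4) and 36.3% of the others. At shared sites the motif was likewise less frequent in marked regions, with 68.1% against 80.8% for H3K27ac and 65.5% against 80.9% for H3K4me3.

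The strongest IMR90-only sites in an LNCaP H3K27ac region lay in introns of RGS3, a regulator of G protein signalling (29.5 and 32.1 in control cells), and WWC1, a Hippo pathway gene (30.0 and 20.3), and in a noncoding exon of ENSG00000268797 (20.0 and 26.8). The RGS3 site had 10.0 in CTCF siRNA replicate 1 and no peak in replicate 2, while the WWC1 and ENSG00000268797 sites were kept in both. The strongest in an H3K4me3 region lay 20847 bp from NUFIP1 (19.0 and 25), in an intron of JAG1, a Notch ligand gene (21.3 and 20.2), and 42 bp from ADAM15, a metalloprotease gene (17.9 and 23.2). The JAG1 site had 5.12 and 6.91 in the CTCF siRNA libraries, values that are not scaled to those of control cells.

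The share of IMR90-only sites in an H3K27ac region was higher in both LNCaP CTCF siRNA libraries than in both controls. The share was 16.1% and 14.2% in the control libraries and 18.9% and 22.2% after CTCF siRNA, so the groups did not overlap, and the means were 15.1% ± 1.33 and 20.5% ± 2.38 (SD, n = 2 each). The difference of 5.43 percentage points had p = 0.33 in the two-sided exact permutation test, the smallest that this test allows with 2 libraries against 2. At shared sites the difference was 2.52 points (p = 0.67, exact permutation test), and the shares of the groups overlapped. The CTCF siRNA lists of H3K27ac held 92200 and 96641 regions against 84953 and 68319 in control cells, and with all 4 lists at the length of the shortest the difference at IMR90-only sites was 3.37 points. Regions of CTCF siRNA replicate 2 were also wider. Their median was 1700 bp in the full list, against 1350 bp in replicate 1 and 1350 and 1300 bp in the controls. What width contributed was not tested.

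Both CTCF siRNA libraries and neither control library had an H3K27ac region at 103 IMR90-only sites (2.94%, 2.43 to 3.56), and both control and neither CTCF siRNA library at 5 (0.143%). Over all IMR90 control sites these shares were 2.40% (2.23 to 2.58) and 0.918%, so the first lay near that of all sites. For H3K4me3 the share was 9.71% and 11.3% in control and 10.1% and 13.5% after CTCF siRNA, a difference of 1.30 points (p = 0.67, two-sided exact permutation test), and the groups overlapped. At shared sites the difference was 1.46 points, and with the 4 lists at equal length that at IMR90-only sites was 0.571. Without CTCF siRNA replicate 2, whose H3K4me3 list held 58751 regions against 40352 in replicate 1, this difference was -0.400.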

How the data were processed

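CTCF ChIP-seq was analysed in 12 libraries and histone ChIP-seq in 8. In standard CTCF libraries, the authors mapped reads to hg19 with Bowtie without duplicate and multi-mapping reads, and ran MACS2 on each library at an FDR of 0.05. Reads of low-cell libraries were cleared of adapters by the authors with cutadapt, mapped with BWA and reduced to unique molecules by their identifiers before MACS2 was run on each library. Histone regions were called per library by the authors with PeakRanger, and each deposited region carries a score whose meaning is not given in the sources used here, so it served only to rank regions. The deposited fold enrichment is a ratio to the local background of the same library. The deposited −log10 p-values and q-values and the MACS2 score were made by the authors' peak caller, and the −log10 values were used only to rank peaks. The growth text of the standard IMR90 libraries names LNCaP only.

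Peaks on chromosomes 1 to 22 of the 2 IMR90 control lists were merged at 1 bp of overlap. Sites with a peak in both were classed by overlap of at least 1 bp with the LNCaP control lists. Shares carry Wilson 95% intervals. Libraries were compared by two-sided exact permutation tests over 2 against 2, in which the spread is that between libraries. The study's methods call the standard ChIP-seq replicates biological duplicates. They call the low-cell libraries duplicates without saying of what kind, so that spread may be technical. Shared sites were weighted to the IMR90-only sites over 20 ranges of control strength. Genes and features came from GENCODE 44 on GRCh37, and a site outside protein-coding genes was named by the nearest one. The steps were run with Python 3.11.15, numpy 2.4.6, pandas 2.3.3, scipy 1.17.1, pysam 0.24.0, matplotlib 3.10.9 and samtools 1.23.1 and tested on simulated data.

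The members, gene lists and tests were chosen with earlier results of these data known. Named sites were the 5 strongest, the 3 clusters and 3 runs with the most sites (ties broken by summed fold enrichment), up to 4 per gene list, and the 3 strongest with an LNCaP CTCF siRNA peak or in a region of each mark. The rule's set with peaks in both standard and both low-cell CTCF siRNA libraries was empty. The sites at EDEM3, MAD2L1, FRG2B, EHD2, PITRM1, JADE1, LAMA2 and MOV10L1 and the short motifs other than that of CTCF were chosen after their values were seen. Sites on chromosomes X and Y were left out by the rule.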

Additional observations from a re-analysis of the deposited data

How the results depend on the processing

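Of 126 alternatives over 13 results, 47 moved a value by more than its spread or a count by over 1.5 times and 1 reversed a difference. The permutation p of the 3 differences between libraries cannot pass a threshold, so it says nothing of their stability. The low-cell difference was 4.87 points with a peak in either IMR90 control library, and the H3K4me3 difference 0.571 with lists at equal length. The reversal was that of the H3K4me3 difference, -0.400 without CTCF siRNA replicate 2. With a peak asked for in either IMR90 control library there were 9777 IMR90-only sites, of which 3.24% were kept in both standard CTCF siRNA libraries, 2.85% were found in both low-cell controls, 27.9% had the CTCF motif and 28.7% had an IMR90-only nearest site. With the standard control lists at equal length there were 4361 IMR90-only sites, of which 6.97% were found in both low-cell controls, 38.2% had the motif and 21.4% had an IMR90-only nearest site. The nearest-site share rises as IMR90-only sites make up more of all sites. That proportion is not given for these settings, so these values do not measure clustering alone. The share found in both low-cell controls was 5.42% with an overlap of 50% of the shorter peak, 4.10% with summits within 100 bp and 5.53% with no LNCaP control peak within 1000 bp. The motif share was 11.2% with up to 1 mismatch and 28.7% within 50 bp of the summit. The H3K27ac and H3K4me3 shares were 19.2% and 11.3% for regions in at least 2 of the 4 libraries of the mark, and 18.5% and 13.4% for a region within 1000 bp. Clusters numbered 3 at 25 kb and 41 at 100 kb.

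Leaving out 1 library at a time gave 3961 to 6923 IMR90-only sites, with the highest number without IMR90 control replicate 1. The share kept in the standard CTCF siRNA libraries ranged from 4.25% without IMR90 control replicate 2 to 14.7% without CTCF siRNA replicate 2. The latter is the share of CTCF siRNA replicate 1 alone. The share found in the low-cell controls ranged from 3.52% to 9.85%, and the motif share from 29.4% to 41.5%. For an IMR90-only nearest site the share ranged from 18.8% to 24.9%, in settings with more IMR90-only sites, which tends to raise this share by itself. The H3K27ac share ranged from 12% to 16.1% and the H3K4me3 share from 8.80% to 11.3%. The low-cell difference ranged from 6.02 to 13.3 points, the H3K27ac difference from 3.74 to 7.11 and the H3K4me3 difference from -0.400 to 3.00. Leaving out a control library of the rule loosened it, so the number of IMR90-only sites could only rise. Leaving out a library of a measured pair left the share of the other alone, such as 9.85% in low-cell control replicate 1. Other causes of these changes were not tested.

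With the replicate number as a block, the low-cell difference of 9.53 points, the H3K27ac difference of 5.43 and the H3K4me3 difference of 1.30 each had p = 0.5 in an exact permutation test, the smallest that 2 pairs allow. The labels give same-numbered libraries only a number in common and do not say whether they were paired. The correlation of the deviations of same-numbered libraries over the sites was -0.000493 for low-cell CTCF, -0.0810 for H3K27ac and 0.201 for H3K4me3.

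The peak lists give no read counts, so a missing peak cannot be told apart from a weak one at low depth, and the shares depend on the length of each list. The standard and low-cell protocols differ in depth, alignment and removal of duplicates. With 2 libraries a group, the exact permutation test over libraries cannot give a p under 0.33.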

Other observations

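Within the 1222 IMR90-only sites that had the CTCF motif, those with a CpG in the match kept a peak more often. Of the 237 with a CpG, 13.5% had a peak in both standard CTCF siRNA libraries, against 4.87% of the other 985, and 13.9% and 7.41% had one in both low-cell control libraries. Shared sites showed the same order, with 79.8% and 61.4% kept after CTCF siRNA and 79% and 63.6% found in both low-cell controls. This split was made after the values were seen and was not tested.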
